A study of Mus musculus with 16 samples.

Results

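The mitochondrial ribosome was followed through its nuclear genes, named Mrpl for proteins numbered with the large subunit and Mrps for those numbered with the small one. All genes of the expression table whose symbol is Mrpl or Mrps followed by a digit were taken: 78 of 20101 genes, 49 of them Mrpl and 29 Mrps. No measured value decided which genes of the family entered, but the family was chosen with earlier results of these data known. Gene expression had been measured by RNA-seq in eWAT, the white fat pad that lies along the epididymis, in 4 groups of 4 mice aged 21 weeks. The groups were mice labelled KO on a high-fat diet (HFD KO), mice labelled WT on that diet (HFD WT), mice labelled KO on chow (chow KO) and mice labelled WT on chow (chow WT). All mice began on chow of 5% fat, and the HFD groups received feed of 60% fat from 5 weeks of age. The titles give the genotype as KO and the genotype field of the same samples as a knockdown of ApoA4, the gene of a lipid-binding plasma apolipoprotein. The sources used here do not give the kind of allele, its promoter or target cells, the strain or the sex.

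Mitochondria keep a ribosome of their own, which makes the few proteins encoded by mitochondrial DNA, all of them membrane subunits of the respiratory chain and ATP synthase. Every protein of this ribosome is encoded in the nucleus, made in the cytosol and imported. Some members descend from bacterial ribosomal proteins and others were added in the mitochondrial lineage. In white fat, adipocytes use their mitochondria for fatty acid oxidation and to supply precursors for lipid synthesis. By known structure, 51 of the 78 genes encode large subunit proteins and 26 small subunit proteins. Mrps30 and Mrps18a carry small subunit names but sit in the large subunit, and Mrps36, now assigned to the α-ketoglutarate dehydrogenase complex, was counted in neither. Of the large subunit genes, 29 encode proteins with a counterpart at the same place in the bacterial ribosome, and 21 proteins at places specific to mitochondrial ribosomes; of the small subunit genes, 15 have such a counterpart and 10 are specific in this sense. The classes go by place and not by descent, and the remaining gene of each subunit was left unclassed.

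The labels and the libraries limit what follows. Libraries labelled KO held more Apoa4 RNA than those labelled WT: 8.69, 9.63, 7.23 and 4.93 FPKM in HFD KO against 0.29, 0, 0.08 and 0 FPKM in HFD WT, and 3.59, 1.96, 5.96 and 5.29 FPKM in chow KO against 0.29, 0.25, 0.23 and 0.09 FPKM in chow WT. FPKM is the authors' fragment count scaled to transcript length and library size. By limma, a linear model fitted over all genes on log2(FPKM + 1), the rise was 2.95 on HFD (SE 0.24, adjusted p = 4.0e-05) and 2.03 on chow (SE 0.24, adjusted p = 0.000476), so each genotype direction rests on labels that this RNA goes against. Genes of the epididymis were high in 3 libraries: replicate 2 of chow KO and replicates 4 and 2 of HFD KO. The 17 listed genes summed to 16805, 5544 and 342 FPKM in these, and to at most 45.1 FPKM in the other 13 libraries. The 14 listed adipocyte genes summed to 3596 to 15762 FPKM in HFD KO, 5873 to 19513 FPKM in HFD WT, 18190 to 41810 FPKM in chow KO and 33693 to 36164 FPKM in chow WT. No gene of this list was at 0 in any library. The 14 macrophage genes summed to 3882 to 12138 FPKM in HFD KO, 3011 to 13212 FPKM in HFD WT, 1078 to 1317 FPKM in chow KO and 1417 to 1525 FPKM in chow WT. How many fragments stood behind a value is unknown; relative depth, read from circular RNA entries of the same table, lay between 0.756 and 1.43.

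All 78 genes were expressed, with at least 1 FPKM in all 16 libraries and at least 5 FPKM in all 16 for 73 of them, and all passed the filter for testing. Their median level, per transcript length, was 20.9 FPKM. Mrps21, a small subunit protein with a bacterial counterpart, was the highest with a mean of 89.0 FPKM over the 16 libraries. It was followed by Mrps6 (70.2 FPKM), Mrpl42 (60.6 FPKM), Mrpl30 (57.7 FPKM) and Mrpl54 (49.0 FPKM). The lowest were Mrpl19 (2.91 FPKM), Mrps25 (5.10 FPKM), Mrpl35 (5.20 FPKM), Mrpl15 (6.14 FPKM) and Mrpl17 (6.98 FPKM). Within a group, the median coefficient of variation of a gene over 4 libraries was 15.1% in HFD KO, 11.9% in HFD WT, 12.8% in chow KO and 7.65% in chow WT. Mrps6, whose exons overlap Slc5a3 and Gm49711 on the same strand, had the widest spread in HFD WT at 36.9%. The genes lie on 17 chromosomes, with 11 of them on chromosome 11. Exons of 33 members overlap another gene, for 28 on the opposite strand, and unstranded reads cannot be told apart there. Among the genes described, the opposite strand is shared by Mrpl12 (with Gm16755), Mrps18b (Gm16279), Mrpl24 (Rrnad1), Mrpl9 (Oaz3), Mrpl36 (Ndufs6), Mrpl44 (Wdfy1), Mrpl58 (Ict1os), Mrps25 (Nr2c2), Mrps26 (4930473A02Rik) and Mrps34 (Mapk8ip3). Mrps34 also overlaps Nme3, and Mrps18c Gm43511, on the same strand. The remaining overlaps of described genes are given where those genes appear.

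Summed over the 78 genes, the HFD KO libraries held 1637, 1611, 1659 and 2042 FPKM. The HFD WT libraries held 1852, 1853, 1596 and 1931 FPKM, the chow KO libraries 2070, 2057, 2085 and 2082 FPKM and the chow WT libraries 1952, 1895, 1853 and 1842 FPKM. HFD KO and HFD WT overlapped, HFD WT overlapped chow WT, and chow KO stood above every other library. Without the 3 libraries with epididymal genes, HFD KO held 1637 and 1659 FPKM and chow KO 2070, 2085 and 2082 FPKM. The sum took 0.369% to 0.441% of all FPKM in HFD KO, 0.363% to 0.451% in HFD WT, 0.451% to 0.473% in chow KO and 0.403% to 0.418% in chow WT. Of the 78 genes, 50 had their highest library in chow KO, and 35 had their lowest in HFD KO.

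**Figure D1:**
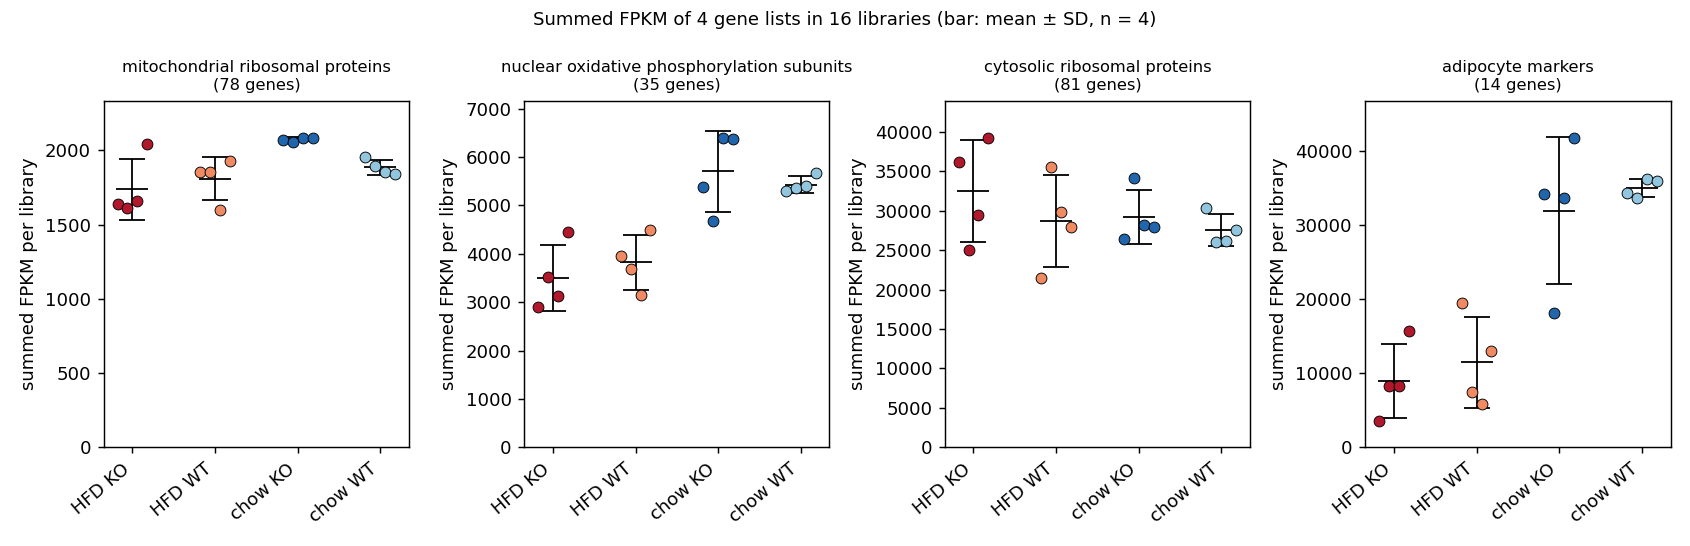
Summed FPKM per library (vertical axis, from 0) of the 78 Mrpl and Mrps genes, 35 nuclear oxidative phosphorylation genes, 81 cytosolic ribosomal protein genes and 14 adipocyte genes in the HFD KO, HFD WT, chow KO and chow WT groups (points: libraries; bars: mean ± SD, n = 4). The chow KO points of the mitochondrial ribosome lie together between 2057 and 2085 FPKM, while 1 HFD KO library, replicate 4, lies at 2042 FPKM, apart from the other HFD KO libraries at 1611 to 1659 FPKM.

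The first comparison asked what the high-fat diet did in mice labelled KO. Genes of the mitochondrial ribosome were mostly lower: 30 of the 78 fell and 2 rose past an adjusted p of 0.05, where 15.3% of all 12667 tested genes fell and 23.5% rose. The median log2 difference of the 78 genes was −0.24, against 0.08 over all tested genes, and 59 of them were below 0, as were 44.1% of all genes. In 19 genes every HFD KO library was below every chow KO library (11.3% of all genes), and in 1 gene, Mrpl19, every one was above (17.5%). Both subunits were represented: 18 of 51 large subunit genes fell with a median of −0.23 over the class, and 12 of 26 small subunit genes fell with a median of −0.35. Small subunit genes with a bacterial counterpart had the lowest median of the 4 such classes, −0.54, with 7 of 15 called lower. Of the mitochondria-specific small subunit genes, 5 of 10 were called lower. Over both subunits, 38.6% of genes with a bacterial counterpart and 38.7% of mitochondria-specific genes were called lower, with medians of −0.25 and −0.24. Adipocyte markers moved with these counts: 10 of the 14 were lower in HFD KO, and all 14 macrophage markers were higher. Relative depth was 0.890 to 1.43 in HFD KO and 0.756 to 0.881 in chow KO, without overlap. The part of the markers and of depth in the result was not tested. In bulk tissue, fewer cells of a type and less RNA per cell cannot be told apart.

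Mrps16, a small subunit protein whose loss in humans causes a respiratory chain disorder, changed most. It stood at 28.6, 24.2, 17.6 and 21.8 FPKM in HFD KO, against 48.6, 36.6, 42.9 and 48.3 FPKM in chow KO. No library of one group reached the other, and the HFD level was 0.528 of the chow level in FPKM + 1 (log2 difference −0.92, SE 0.17, limma adjusted p = 0.000941). Mrps24, also of the small subunit, stood at 26.8, 21.3, 18.5 and 21.2 FPKM in HFD KO, against 33.4, 31.0, 53.9 and 50.2 FPKM in chow KO (log2 difference −0.88, SE 0.18, adjusted p = 0.00175). Its groups did not overlap, although the chow libraries split into 2 low and 2 high ones, and Mrps24 shares exon sequence with Urgcp on the same strand. Mrps7, a protein of the head of the small subunit, stood at 19.4, 20.8, 22.7 and 27.0 FPKM in HFD KO, against 37.3, 32.9, 36.6 and 34.4 FPKM in chow KO (log2 difference −0.64, SE 0.12, adjusted p = 0.0010). Again the groups did not overlap; exons of Mrps7 overlap Gga3 and Mif4gd on the opposite strand, and whether the libraries were stranded is not stated in the sources used here.

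The promoters of 4 genes with large diet differences are given: Mrps16 and Mrps24 fell in mice labelled KO, and Mrpl12 and Mrps22 rose in mice labelled WT. The falls and the rises come from different genotypes, so they are not a contrast of directions within the same genotype. Each is printed from 100 bases before a RefSeq start on GRCm38.p6, and capitals mark matches to the motifs searched. Mrps16 lies at chr14:20393635-20393734 on the minus strand, Mrps24 at chr11:5707702-5707801 on the minus strand, Mrps22 at chr9:98601680-98601779 on the minus strand and Mrpl12 at chr11:120484537-120484612 on the plus strand, where the last 24 bases, which lie in an annotated exon, are left off. The capitals are a CCAAT box on the opposite strand in Mrps16, an ETS motif in Mrps22 and an NRF1 motif in Mrpl12; the Mrps24 stretch held none of the motifs. RefSeq lists another start for Mrps16, downstream of the one shown, and an ETS match before that start, in a stretch not printed, places Mrps16 among the genes with ETS.
Mrps16: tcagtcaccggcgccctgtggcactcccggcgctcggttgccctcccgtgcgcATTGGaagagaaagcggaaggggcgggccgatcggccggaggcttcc
Mrps24: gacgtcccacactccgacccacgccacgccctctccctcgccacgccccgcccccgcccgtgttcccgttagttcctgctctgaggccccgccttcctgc
Mrps22: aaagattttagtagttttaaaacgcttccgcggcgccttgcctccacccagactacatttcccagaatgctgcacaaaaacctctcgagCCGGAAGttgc
Mrpl12: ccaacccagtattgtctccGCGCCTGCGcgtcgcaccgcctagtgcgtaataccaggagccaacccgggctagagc
NRF1 and the ETS factor GABP are known as activators of nuclear genes for mitochondrial proteins. Over the 250 bases before the start, and on both strands, the NRF1 letters GCGCNTGCG were present for 21.7% of the 69 members with a promoter in the RefSeq table, against 12.3% of the 10110 tested genes with one. A gene was counted when any of its listed starts had a match, and the 69 members have 75 starts. ETS (CCGGAAG) was present for 26.1% against 15.4%, YY1 (AAGATGGC) in 5.8% against 2.35%, the CCAAT box (CCAAT) in 36.2% against 40.7% and the E-box (CACGTG) in 7.25% against 9.91%. Matches of different motifs did not overlap in any of the 69. Of the 26 genes among them that fell on HFD in mice labelled KO, 19.2% had an NRF1 match and 23.1% an ETS match, against 23.3% and 27.9% of the 43 other members. These shares are a description, with no test.

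Among the other genes that fell in mice labelled KO, Mrps5, a small subunit protein, stood at 10.1, 11.2, 12.1 and 14.1 FPKM in HFD KO, against 22.1, 16.2, 19.0 and 18.02 FPKM in chow KO (log2 difference −0.63, limma adjusted p = 0.00175). Mrps31, a small subunit protein specific to mitochondria, stood at 5.63, 6.59, 6.74 and 6.60 FPKM in HFD KO, against 13.9, 10.2, 9.97 and 8.95 FPKM in chow KO (log2 difference −0.66, adjusted p = 0.00247). Neither gene's groups overlapped. Mrpl35, a large subunit protein of low level, stood at 4.30, 4.46, 3.80 and 3.11 FPKM in HFD KO, against 6.54, 5.18, 6.76 and 5.96 FPKM in chow KO (log2 difference −0.54, adjusted p = 0.00233). Mrpl37, a mitochondria-specific large subunit protein, had a difference of −0.80 with a wide error (SE 0.31, adjusted p = 0.0497). It stood at 16.3, 17.99, 16.4 and 16.7 FPKM in HFD KO, against 27.8, 76.4, 18.8 and 19.98 FPKM in chow KO, where 76.4 FPKM belongs to replicate 2, the library with the most epididymal RNA. Without that library the log2 difference was −0.36 (adjusted p = 0.0463), and without all 3 libraries with epididymal genes −0.40 (adjusted p = 0.0679). The call also ended without chow KO replicate 1 or without any 1 HFD KO library, at adjusted p-values of 0.0704 to 0.0957.

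Only Mrpl19 and Mrps36 rose on HFD in mice labelled KO. Mrpl19, a large subunit protein, stood at 4.02, 3.19, 3.68 and 3.14 FPKM in HFD KO, against 2.74, 2.87, 2.17 and 2.28 FPKM in chow KO (log2 difference 0.36, SE 0.13, limma adjusted p = 0.0451). Mrps36, the dehydrogenase component, stood at 22.3, 18.5, 22.2 and 24.5 FPKM in HFD KO, against 17.4, 17.3, 19.5 and 15.3 FPKM in chow KO (log2 difference 0.31, SE 0.11, adjusted p = 0.0407). Its groups overlapped, it has 3 named pseudogenes that could share its reads, and exons of Mrpl19 overlap Gcfc2 on the opposite strand. Both calls ended under median-of-ratios scaling, where the adjusted p was 0.0718 for Mrpl19 and 0.188 for Mrps36. They ended as well without any 1 of 6 libraries, at adjusted p-values of 0.0503 to 0.129 for Mrpl19 (each library of both groups but HFD KO replicate 4 and chow KO replicate 2) and 0.0559 to 0.116 for Mrps36 (each but HFD KO replicate 2 and chow KO replicate 3). Mrpl34 and Mrpl52, also among the largest positive differences, were not called. Mrpl34 stood at 30.8, 44.5, 39.5 and 46.1 FPKM in HFD KO, against 33.6, 30.9, 32.7 and 31.0 FPKM in chow KO, and Mrpl52 stood at 54.4, 43.2, 40.4 and 50.4 FPKM in HFD KO, against 30.0, 50.3, 28.8 and 44.9 FPKM in chow KO.

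Without the 3 libraries with epididymal genes, 33 members fell and 1 rose in mice labelled KO, 26 of the 33 being among the 30, and the median difference was −0.30, where 20.1% of all genes fell and 30.0% rose. With the HFD KO and chow KO groups fitted alone, 18 fell, where 9.92% of all genes did. The count of lower members was 41 under median-of-ratios scaling (20.6% of all genes lower), 45 under quantile normalization (23.1%) and 42 with library quality weights (22.9%). The all-gene median shifted with the scaling of the libraries, to as low as −0.07 in this comparison under quantile normalization, where that of the members was −0.40. The gap between them was −0.32 as deposited and between −0.32 and −0.34 under the 3 other scalings.

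**Figure D2:**
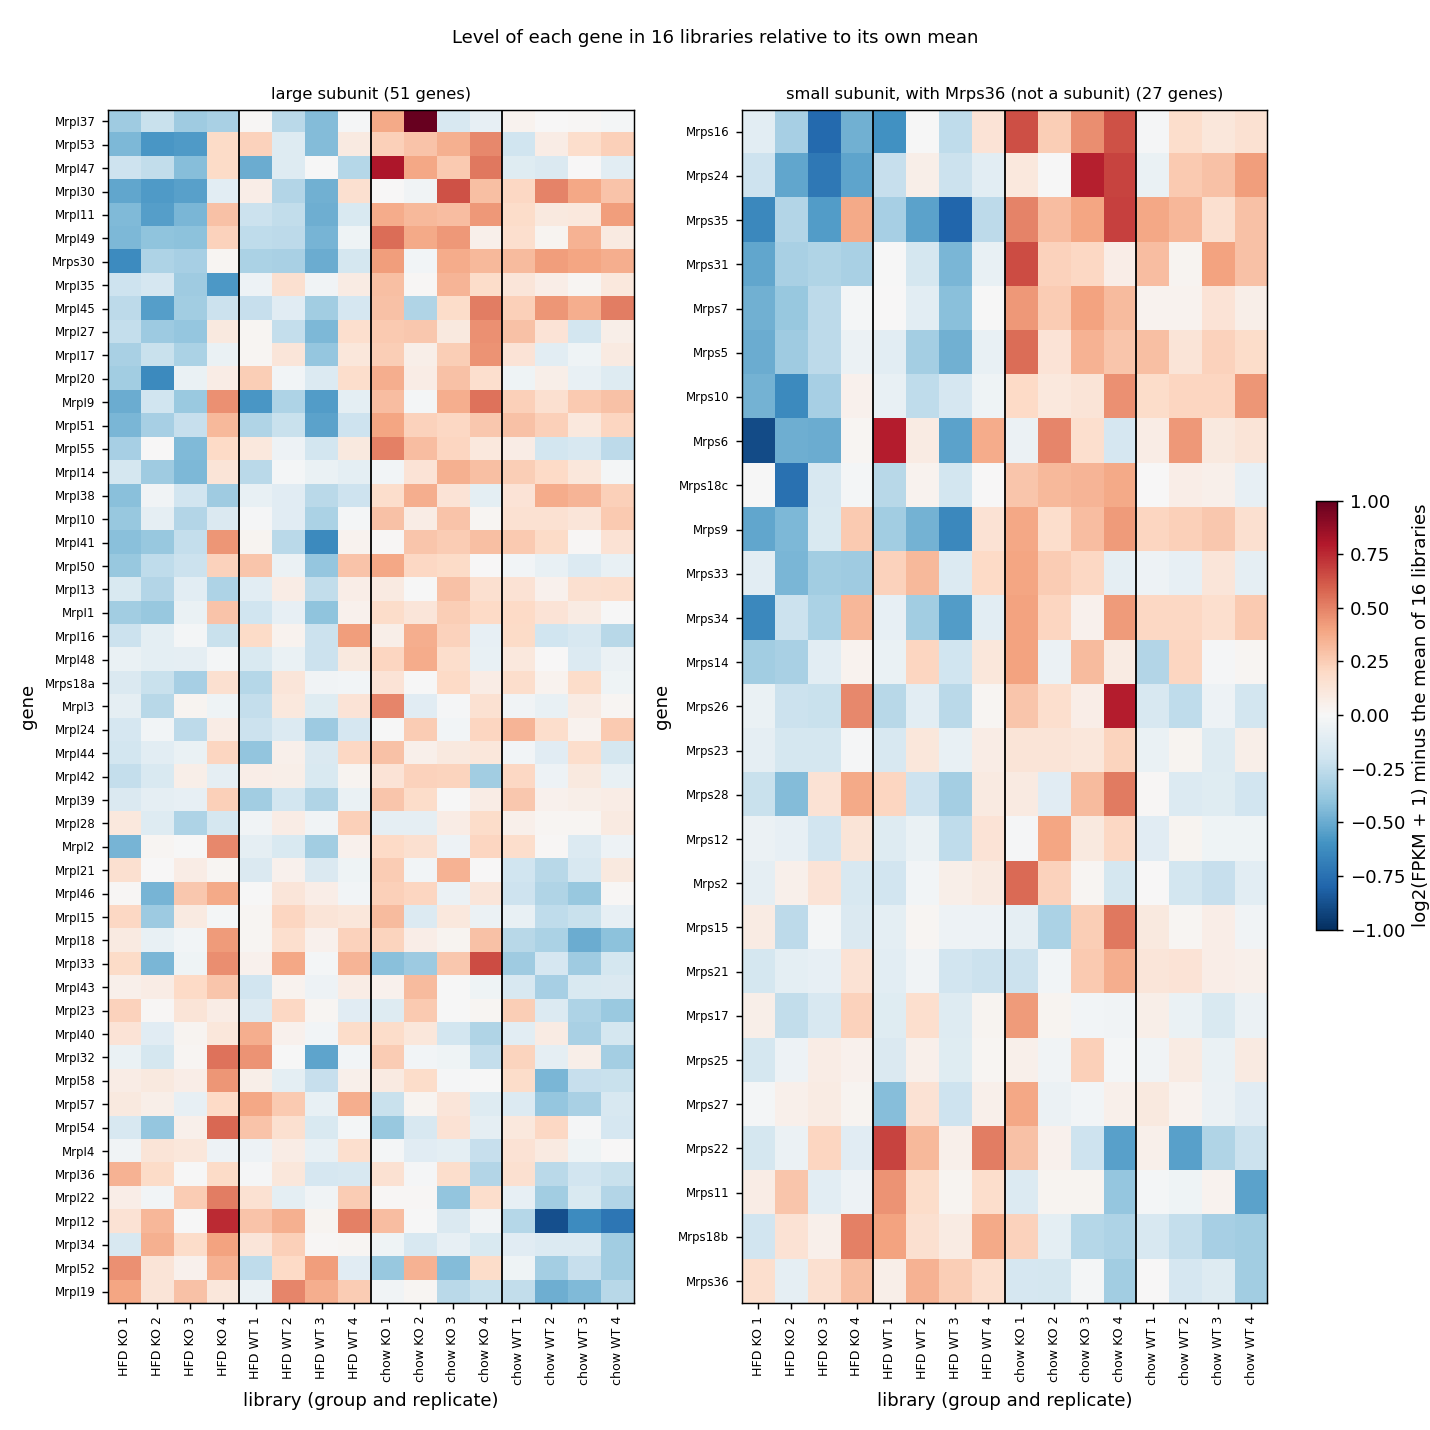
Level of each of the 78 genes in 16 libraries as log2(FPKM + 1) minus the mean of that gene over the libraries (red above, blue below; colours end at 1 and −1), with large subunit genes at left and the small subunit with Mrps36 at right, ordered by the HFD minus chow difference in mice labelled KO. The upper rows, led by Mrpl37 and Mrps16, are mostly blue in HFD KO and red in chow KO, while Mrpl12 is darkest blue in chow WT. In Mrpl37, chow KO replicates 3 and 4 (18.8 and 19.98 FPKM) lie below the mean of the gene, and replicate 2 is at 76.4 FPKM.

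The second comparison asked the same of mice labelled WT. Here the genes went both ways: 17 fell and 7 rose, where 17.2% of all tested genes fell and 24.6% rose. That is 21.8% of the members called lower, near the background, and 8.97% called higher, under it. The median log2 difference was −0.04, against 0.06 over all genes; with each library scaled to a constant sum it was 0.04, against 0.13. That scaling called 10 members lower and 10 higher, where 14.4% of all genes were lower and 28.7% higher. Quantile normalization called 22 lower and 4 higher, where 21.9% of all genes were lower and 18.7% higher. Every HFD WT library was below every chow WT library in 19 genes (20.7% of all genes) and above it in 9 (26.1%). By class, 11 of 51 large subunit genes and 6 of 26 small subunit genes fell. The adipocyte list had 9 of 14 genes lower and the macrophage list 14 of 14 higher in HFD WT. Relative depth was 1.03 to 1.23 in HFD WT and 0.928 to 1.02 in chow WT, without overlap. The part of the lists and of depth was not tested. The count of 17 rested on several libraries: it was 8 without HFD WT replicate 3 (12.9% of all genes lower), 11 without HFD WT replicate 2 (13.9%) and 10 without chow WT replicate 4 (14.3%).

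Mrps35, of the small subunit, stood at 15.1, 12.9, 10.7 and 15.9 FPKM in HFD WT, against 25.5, 24.5, 21.6 and 23.8 FPKM in chow WT (log2 difference −0.77, SE 0.19, limma adjusted p = 0.00471). Mrps30, of the large subunit, stood at 16.7, 16.6, 14.6 and 18.6 FPKM in HFD WT, against 26.4, 28.4, 27.97 and 27.5 FPKM in chow WT (log2 difference −0.70, SE 0.13, adjusted p = 0.000982). In both genes the groups did not overlap; exons of Mrps30 overlap B430218F22Rik on the opposite strand. Mrpl45, which in humans lies beside the exit tunnel where the ribosome meets the inner membrane, stood at 11.7, 12.8, 10.8 and 12.3 FPKM in HFD WT, against 16.6, 19.3, 18.2 and 20.3 FPKM in chow WT (log2 difference −0.61, SE 0.15, adjusted p = 0.0044). The large subunit genes Mrpl24 (log2 difference −0.42), Mrpl38 (−0.44) and Mrpl9 (−0.63) and the small subunit gene Mrps5 (−0.47) fell as well, all with groups that did not overlap.

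Mrpl12, of the stalk to which translation factors bind, had the largest rise. It stood at 47.9, 50.4, 39.9 and 55.8 FPKM in HFD WT, against 32.0, 20.9, 25.01 and 23.4 FPKM in chow WT (1.89-fold in FPKM + 1, log2 difference 0.92, SE 0.17, limma adjusted p = 0.000883). The groups did not overlap; its NRF1 match is in the stretch printed above. Mrpl19 stood at 2.66, 4.37, 3.91 and 3.56 FPKM in HFD WT, against 2.22, 1.73, 1.82 and 2.15 FPKM in chow WT (log2 difference 0.62, SE 0.13, adjusted p = 0.00215). Mrpl18, a large subunit protein of the central protuberance, stood at 26.8, 29.9, 27.3 and 31.2 FPKM in HFD WT, against 21.6, 21.1, 18.5 and 19.7 FPKM in chow WT (log2 difference 0.49, SE 0.12, adjusted p = 0.0041). Both had higher levels in all 4 HFD libraries than in any chow library. Mrpl57, of the large subunit, rose by 0.49 (adjusted p = 0.00548, but 0.0527 under quantile normalization) and Mrps36 by 0.36 (adjusted p = 0.0188). Mrps22, a mitochondria-specific small subunit protein, stood at 18.1, 13.98, 11.4 and 16.1 FPKM in HFD WT, against 11.4, 7.22, 8.74 and 9.31 FPKM in chow WT, with groups that touched at 11.4 FPKM (log2 difference 0.64, SE 0.19, adjusted p = 0.0123).

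The paralogs Mrps18a, Mrps18b and Mrps18c descend from 1 bacterial gene and now occupy separate places in the ribosome, those of Mrps18a and Mrps18b being places that the bacterial ribosome lacks. Mrps18a, of the large subunit, stood at 24.9, 23.6, 21.8 and 31.0 FPKM in HFD KO, 22.6, 30.1, 26.9 and 27.1 FPKM in HFD WT, 30.6, 27.6, 31.9 and 29.2 FPKM in chow KO and 31.3, 28.3, 31.5 and 26.9 FPKM in chow WT. It was not called with diet in either genotype (log2 difference −0.24, adjusted p = 0.122 in mice labelled KO and −0.14, adjusted p = 0.346 in mice labelled WT). Mrps18b, of the small subunit, rose with the diet in mice labelled WT: 38.9, 32.7, 31.0 and 38.3 FPKM in HFD WT, against 26.0, 24.7, 23.0 and 22.7 FPKM in chow WT (log2 difference 0.52, limma adjusted p = 0.0126, but 0.0631 under quantile normalization). In mice labelled KO its difference was 0.24 (adjusted p = 0.217). Mrps18c, the member that keeps the bacterial place, fell in mice labelled KO: 26.5, 15.4, 23.6 and 26.1 FPKM in HFD KO, against 32.3, 33.4, 33.7 and 34.7 FPKM in chow KO (log2 difference −0.56, adjusted p = 0.00651). In mice labelled WT its difference was −0.12 (adjusted p = 0.53).

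Across both genotypes, 14 genes fell with the diet in each, which is 46.7% of the 30 that fell in mice labelled KO and 82.4% of the 17 in mice labelled WT. Over all tested genes, those that fell in both made up 65.7% of the genes that fell in mice labelled KO and 58.5% of those in mice labelled WT. The 2 genes that rose in mice labelled KO were among the 7 that rose in mice labelled WT (28.6% of those), where 71.1% of all genes that rose in mice labelled WT also rose in mice labelled KO. No gene was called in opposite directions, and 38 of the 78 were called in none of the 2 diet comparisons and the comparison of genotypes on chow. Whether the diet differences themselves differed was tested as an interaction, the diet difference in mice labelled KO less the one in mice labelled WT. By limma, 0 of 78 genes passed in either direction (0.253% of all genes passed higher and 0.0395% lower), while 17 had an unadjusted p under 0.05, against 10.1% of all genes. The median interaction was −0.17 on the log2 scale, against 0.02 over all genes, with 59 of 78 genes below 0, where 47.7% of all genes were. Mrps33, a mitochondria-specific small subunit protein, had the lowest value. It stood at 20.6, 15.9, 17.3 and 17.2 FPKM in HFD KO, 26.3, 28.1, 20.1 and 25.6 FPKM in HFD WT, 29.6, 26.7, 25.9 and 20.8 FPKM in chow KO and 21.4, 21.0, 24.3 and 20.9 FPKM in chow WT (interaction −0.69, SE 0.18, adjusted p = 0.162). Mrpl12 (−0.65, adjusted p = 0.347), Mrps16 (−0.63, adjusted p = 0.337) and Mrpl37 (−0.62, adjusted p = 0.699) followed. At the other end, Mrpl24 (0.22), Mrpl39 (0.18), Mrpl9 (0.17) and Mrpl4 (0.17) had adjusted p-values between 0.709 and 0.90, and the value of Mrpl9 was −0.03 without HFD KO replicate 4. With library quality weights in the limma fit, 7 genes passed, all with negative interactions, where 1.41% of all genes passed lower and 1.89% higher. Leaving out the 3 libraries with epididymal genes gave a median interaction of −0.22 for the members, against 0.06 over all genes. In that fit 70 of 78 members were below 0, while 56% of all genes were above 0.

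**Figure D3:**
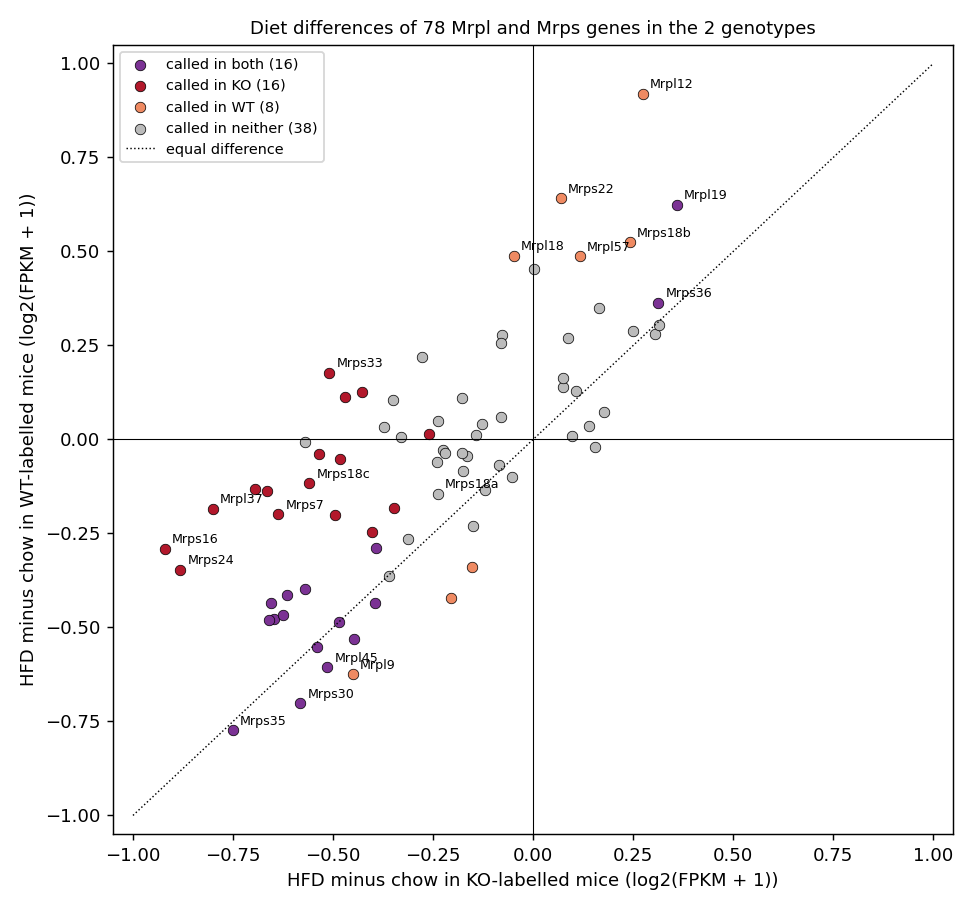
HFD minus chow difference of each of the 78 genes on the log2(FPKM + 1) scale in mice labelled KO (horizontal axis) and in mice labelled WT (vertical axis), coloured by the comparisons in which limma called the gene at an adjusted p under 0.05; the dotted line marks equal differences. Of the 78 points, 16 were called in both genotypes, 16 in mice labelled KO, 8 in mice labelled WT and 38 in neither, and most points lie above the dotted line.

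**Figure D4:**
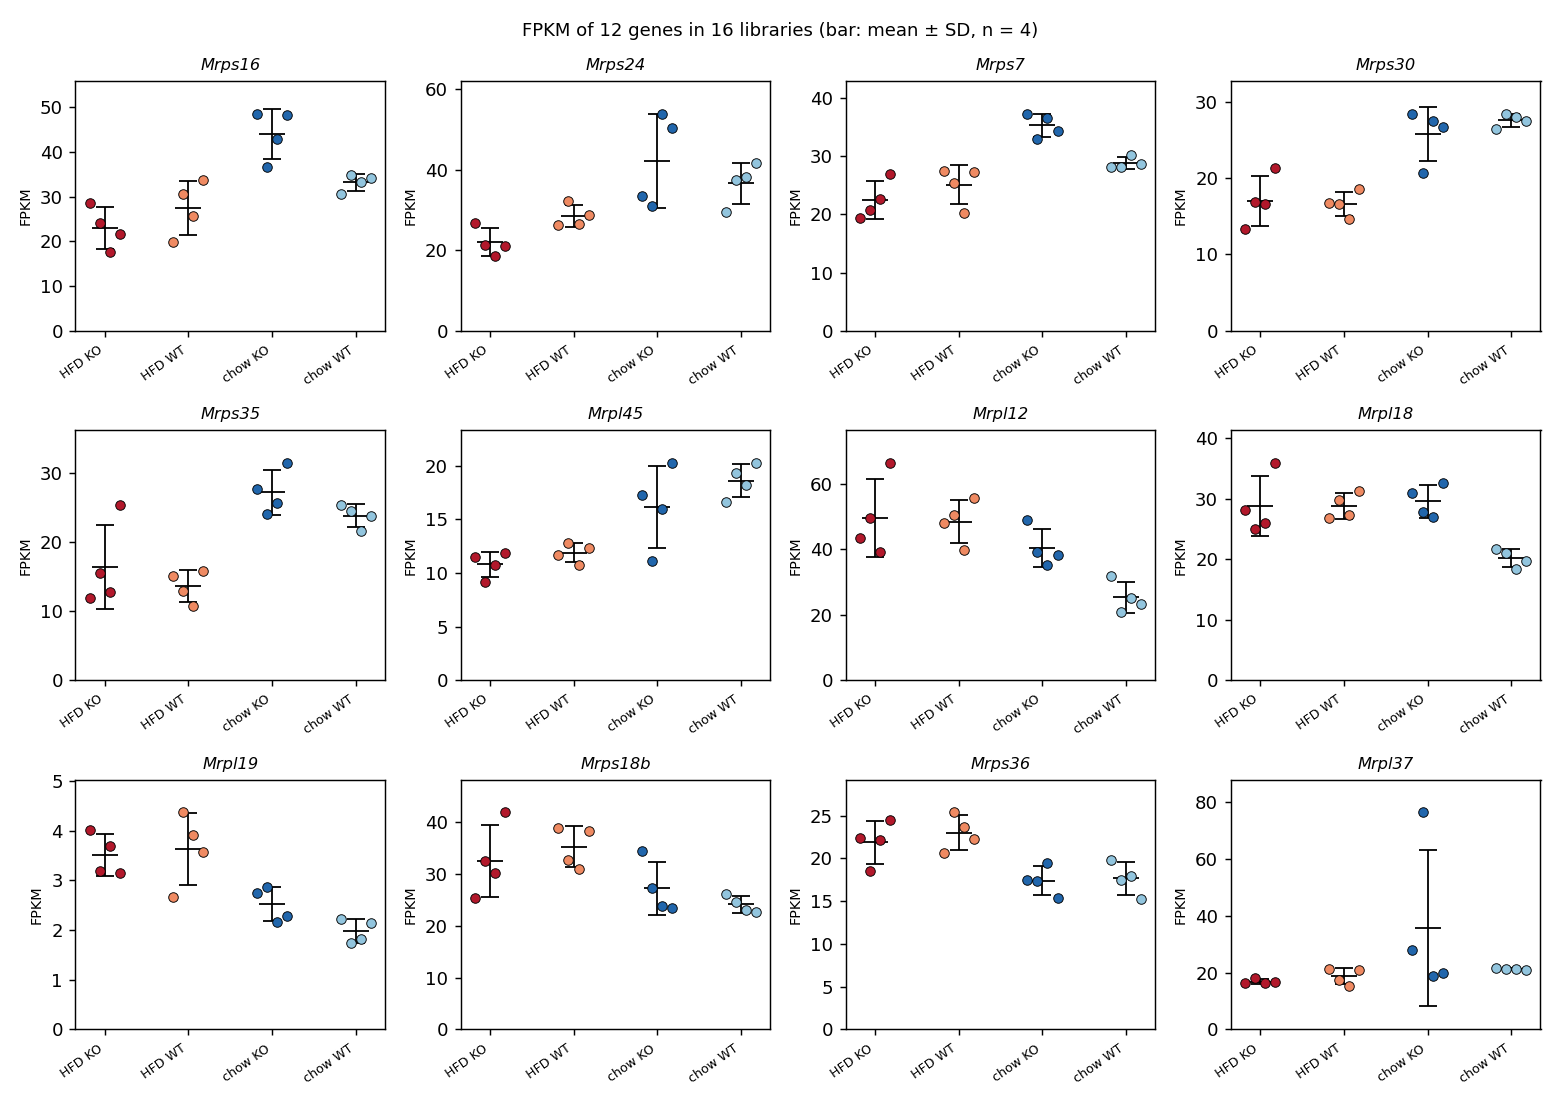
FPKM in each library (points) with mean ± SD (n = 4) of 12 genes in HFD KO, HFD WT, chow KO and chow WT, each panel on its own axis from 0. Mrps16, Mrps24 and Mrps7 are lowest in HFD KO, Mrpl12 and Mrpl18 are lowest in chow WT, and 1 chow KO library of Mrpl37 stands at 76.4 FPKM.

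The third comparison set the genotype labels against each other on HFD. No member passed in limma's test (0 higher, 0 lower), where 0.0237% of all genes passed higher and 0.00789% lower; 5 members had an unadjusted p under 0.05, against 11.8% of all genes. The median difference was −0.04, against 0.09 over all genes, with 45 of 78 genes below 0 (35.2% of all genes); under median-of-ratios scaling the values were −0.18 and −0.04. Mrps6, a small subunit protein, had the most negative difference, with 35.8, 47.7, 47.4 and 68.2 FPKM in HFD KO, against 117, 71.3, 46.1 and 87.2 FPKM in HFD WT (log2 difference −0.64, SE 0.25, adjusted p = 0.359). Mrps33 (−0.47), Mrps22 (−0.42) and Mrps24 (−0.37) came next, with adjusted p-values of 0.295 to 0.429. The largest positive differences were those of Mrpl36 (0.24), Mrpl9 (0.24), Mrpl58 (0.23) and Mrpl39 (0.20), that of Mrpl9 being −0.04 without the 3 libraries with epididymal genes. Mrpl58, a peptidyl-tRNA hydrolase built into the large subunit, stood at 30.8, 31.3, 30.5 and 40.01 FPKM in HFD KO, against 30.5, 27.3, 24.7 and 30.2 FPKM in HFD WT. It was the only member with every HFD KO library above every HFD WT library (5.81% of all genes), and Mrpl35 was the 1 member with the reverse (1.02%). Leaving out the 3 libraries with epididymal genes gave a median of −0.095 for the members, against 0.078 over all genes. In that fit 55 of 78 members were below 0, while 60.8% of all genes were above 0.

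The last comparison of genotype labels was on chow. The median difference of the members was 0.15, against 0.09 over all genes, and 66 of 78 were above 0, where 64.5% of all genes were. With the 3 libraries with epididymal genes left out, the medians were 0.15 and 0.03. Again 66 of 78 members were above 0, where 55.5% of all genes were. All 4 chow KO sums lay above all 4 chow WT sums, as given above. In 13 members every chow KO library was above every chow WT library (8.94% of all genes). By limma, 1 gene passed, Mrpl18, where 0.426% of all genes passed higher and 0.979% lower; 11 members had an unadjusted p under 0.05, against 14.7% of all genes. Under median-of-ratios scaling the median was 0.06, against 0.01 over all genes, with 48 genes above 0, and no member passed. The chow KO libraries were also the shallowest, at a relative depth of 0.756 to 0.881, against 0.928 to 1.02 in chow WT, and held less macrophage RNA, as given above; the part of either was not tested.

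Mrpl18 stood at 31.0, 27.7, 26.9 and 32.6 FPKM in chow KO, against 21.6, 21.1, 18.5 and 19.7 FPKM in chow WT (1.44-fold in FPKM + 1, log2 difference 0.53, SE 0.12, limma adjusted p = 0.036). All chow KO libraries were above all chow WT libraries, but the call ended without chow KO replicate 1, 2 or 4 or without any 1 of the chow WT libraries, with adjusted p-values up to 0.13. Exons of Mrpl18 overlap Tcp1, a cytosolic chaperonin subunit gene, on the opposite strand. Mrpl12 stood at 48.8, 39.1, 35.3 and 38.2 FPKM in chow KO, against 32.0, 20.9, 25.01 and 23.4 FPKM in chow WT, without overlap (log2 difference 0.66, SE 0.17, adjusted p = 0.0771). Mrpl47, a large subunit protein, stood at 14.2, 10.3, 9.38 and 11.49 FPKM in chow KO, against 6.96, 6.82, 7.67 and 7.06 FPKM in chow WT, also without overlap (log2 difference 0.59, SE 0.15, adjusted p = 0.0718). Its exons overlap Actl6a and Ndufb5 on the opposite strand. Mrps26, of the small subunit, differed by 0.49 (adjusted p = 0.205), and the most negative values were those of Mrpl45 (−0.22), Mrpl4 (−0.16), Mrpl54 (−0.15) and Mrpl38 (−0.13), none of them called. The comparisons of diet in a genotype and of genotype on chow share their chow libraries, so for Mrpl12 and Mrpl18 a low chow WT level enters both. Likewise, the high chow KO sums enter the diet comparison in mice labelled KO, the comparison on chow and the interaction. The median KO minus WT difference of the members was 0.15 on chow and −0.04 on HFD.

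Mrpl44, Mrps12 and Mrpl58 were not called in any of the 5 comparisons. Mrpl44, a large subunit protein related to bacterial ribonuclease III, differed by −0.18 with the diet in mice labelled KO and by −0.04 in mice labelled WT. Mrps12, the decoding-centre protein that in bacteria carries streptomycin resistance mutations, differed by −0.22 and −0.04, and Mrpl58 by 0.11 and 0.13. Mrps34, a mitochondria-specific small subunit protein, fell by the same amount in both genotypes (log2 difference −0.49 in each, adjusted p = 0.0372 in mice labelled KO and 0.0349 in mice labelled WT).

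Genes that work with the mitochondrial ribosome were described by lists. Of all tested genes, 15.3% fell and 23.5% rose with the diet in mice labelled KO. In mice labelled WT, 17.2% of all tested genes fell and 24.6% rose. Of 5 mitoribosome proteins named otherwise, Dap3, a GTP-binding small subunit protein, fell with the diet in mice labelled KO (log2 difference −0.43, limma adjusted p = 0.0166), and the other 4 were not called in either genotype. Of 16 tested translation factors, 3 (18.8%) fell in mice labelled KO, among them Tsfm, an elongation factor (−0.53, adjusted p = 0.00402). In mice labelled WT, 1 (6.25%) fell and 2 (12.5%) rose. Mtrf1, a release factor, fell (−0.48). Lrpprc (0.43), which stabilizes mitochondrial messenger RNA, and Gfm1 (0.33), an elongation factor, rose. Of 24 genes of ribosome assembly and rRNA maturation, 10 (41.7%) fell in mice labelled KO (median −0.29). In mice labelled WT, 6 (25%) fell and 1 (4.17%) rose (median −0.22). The GTPase gene Mtg1 fell in both, by 0.73 and 0.67, and the rRNA maturation gene Ngrn by 0.65 and 0.71. Of 20 mitochondrial tRNA synthetases and related enzymes, 7 (35%) fell in mice labelled KO, led by Iars2 (−0.73). In mice labelled WT, 5 (25%) fell and 3 (15%) rose. On chow, Sars2 was higher in mice labelled KO than in those labelled WT (log2 difference 0.66, adjusted p = 0.0273).

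The 16 genes of mitochondrial transcription and biogenesis went both ways. In mice labelled KO, 6 (37.5%) fell with the diet and 2 (12.5%) rose, where 15.3% and 23.5% of all genes did. Tfam, which packages mitochondrial DNA and activates its transcription, fell by 0.61 on the log2 scale (limma adjusted p = 0.00184), Clpp, a matrix protease, by 0.91 (adjusted p = 0.00195), and Pprc1, a coactivator of NRF1, rose by 0.80 (adjusted p = 0.00177). In mice labelled WT, 3 (18.8%) fell and 4 (25%) rose, near the 17.2% and 24.6% of all genes. By limma, Pprc1 rose by 0.87 (adjusted p = 0.000735) and the mitochondrial RNA polymerase gene Polrmt by 0.52 (adjusted p = 0.00233). Tfb2m, a transcription initiation factor, fell by 0.75 (adjusted p = 0.00114).

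The respiratory chain, which receives the products of this ribosome, had lower medians. Of 35 nuclear oxidative phosphorylation genes, 30 (85.7%) fell with the diet in mice labelled KO (median log2 difference −0.79), where 15.3% of all genes fell. In mice labelled WT, 18 (51.4%) fell (median −0.44), where 17.2% of all genes did. The complex I gene Ndufb8 led the first (−1.33, limma adjusted p = 5.4e-05) and the complex II gene Sdha the second (−0.98, adjusted p = 0.000529). The 77 tested genes for cytosolic ribosomal proteins belong to the other ribosome of the cell. In mice labelled KO, 5 (6.49%) rose and none fell (median 0.13), where 23.5% of all genes rose and 15.3% fell. By limma, 11 of the 77 had an unadjusted p under 0.05, against 6091 of all 12667 tested genes. In mice labelled WT, 2 (2.6%) rose and 1 (1.3%) fell (median 0.07), where 24.6% of all genes rose and 17.2% fell. The lists are given as counts and medians, with no test between them. None of the 13 mitochondrially encoded proteins had a row under the mt- symbols searched, so the messenger RNAs that the mitochondrial ribosome translates were not analysed here.

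**Figure D5:**
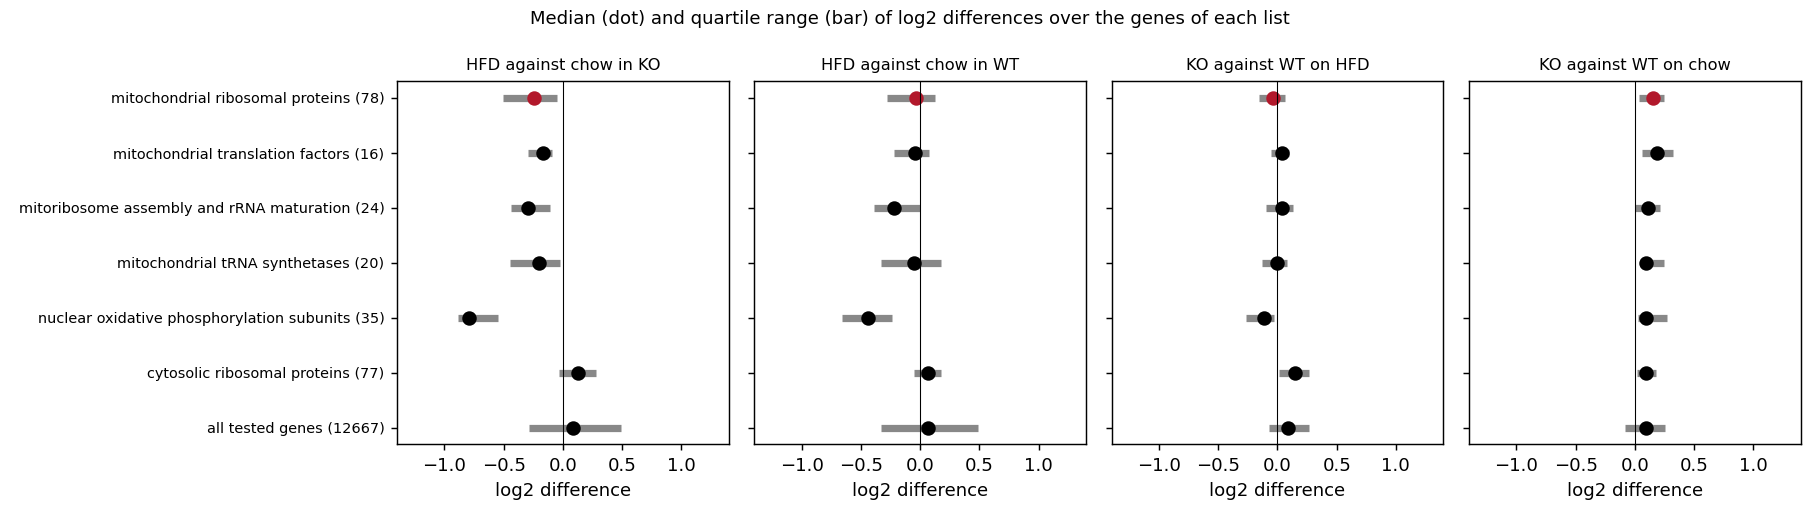
Median (dot) and range between the quartiles (bar) of the log2 differences over the genes of 7 lists (rows, number of tested genes in brackets) in 4 comparisons. In HFD against chow in KO, the dot of the mitochondrial ribosome lies at −0.24, between oxidative phosphorylation at −0.79 and cytosolic ribosomal proteins at 0.13.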

How the data were processed

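Total RNA of eWAT, 16 libraries, was extracted with TRIzol, and paired-end libraries from the MGIEasy kit were run on a BGI-seq instrument, per the labels' protocols. The submitters' processing notes name STAR 2.7 and GRCm38.p6 (mm10); which tool made the values, with what annotation and strand setting, is not stated in the sources used here. The deposited values are FPKM computed by the authors. Rows with numeric gene numbers were used (20101 genes); 14408 circular RNA entries were not used in comparisons, except that their step per library gave relative depth. FPKM gives no counts, so no counting interval is given, and precision comes from the spread of 4 mice per group.

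The 12667 genes that reached an FPKM of 1 in 4 or more libraries were tested on log2(FPKM + 1), pseudocount 1, which understates changes of low genes, with limma 3.58.1 in R 4.3.3: 4 group means, 1 fit of 16 libraries, variance trend, Benjamini-Hochberg over all tested genes, called at an adjusted p under 0.05. The code was tested on simulated data. Differences are HFD minus chow or KO minus WT. Named are, per comparison, up to 6 called members per direction by smallest p, the 4 most positive and 4 most negative, the 5 highest and lowest in level, and 12 fixed members; of other lists, up to 3 called genes by smallest p. Neighbouring and overlapping genes come from GENCODE and RefSeq on GRCm38.p6; promoter sequences are from RefSeq, 69 of 78 matched. Alternatives were scaling, pseudocount, filter, replicate block, weights, groups alone and left-out libraries. The members and lists were chosen with earlier results of these data known.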

Additional observations from a re-analysis of the deposited data

Results flagged for a closer look

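In 10 of 172 sets of 4 libraries examined (named genes and the summed level, each in 4 groups), 1 library stood apart from the other 3 by Dixon's criterion; about 1 in 20 such sets, or 8.6, would do so by chance. HFD KO replicate 4, a library with epididymal genes, accounted for 4 of the 10. It held 2042 FPKM summed over the members (the other 3 held 1611 to 1659), 51.8 FPKM of Mrpl30 (others 37.4 to 38.7), 40.01 FPKM of Mrpl58 (others 30.5 to 31.3) and 21.4 FPKM of Mrpl39 (others 16.3 to 16.9). Mrpl37 stood at 76.4 FPKM in chow KO replicate 2 (others 18.8 to 27.8). Mrps31 stood at 5.63 FPKM in HFD KO replicate 1 (others 6.59 to 6.74). In chow WT, Mrpl39 stood at 22.0 FPKM in replicate 1 (others 18.7 to 19.0), Mrps6 at 91.1 FPKM in replicate 2 (others 70.8 to 73.7), Mrps33 at 24.3 FPKM in replicate 3 (others 20.9 to 21.4) and Mrpl34 at 26.9 FPKM in replicate 4 (others 31.4 to 31.9).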

How the results depend on the processing

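Of the values other than the main ones, recomputed under 28 settings, 975 single-gene and 278 summary values kept their direction and call or moved little; 45 single-gene calls were lost, 10 gained and 4 values changed sign, and 43 summary values moved. The causes were not tested. For HFD against chow in mice labelled KO, members called higher (2) came to 0 under median-of-ratios scaling, quantile normalization, the replicate block and the 2 groups alone, to 1 with no filter, with a mean FPKM of at least 5 and without the 3 libraries with epididymal genes, and to 4 with array weights; members called lower (30) came to 18 with the 2 groups alone, 41 under median-of-ratios scaling, 45 under quantile normalization and 42 with array weights (9.92%, 20.6%, 23.1% and 22.9% of all genes, against 15.3%), and the median to −0.345 under median-of-ratios scaling and −0.404 under quantile normalization. With array weights, where 4 members were higher, 36.2% of all genes were higher, against 23.5% in the main fit. In mice labelled WT, members called lower came to 10 under constant-sum scaling (14.4% of all genes, against 17.2%). Members called higher came to 4 under quantile normalization and 12 with array weights (18.7% and 35.4% of all genes, against 24.6%). The median came to −0.166 under quantile normalization. For KO against WT on chow, members called higher (1) came to 0 under median-of-ratios scaling and quantile normalization, 2 under constant-sum scaling and with the 2 groups alone, and 10 with array weights (4.45% of all genes); the median was 0.055 and 0.056 under the first and second of these scalings. On HFD it was −0.182 and −0.139. Members called lower in the interaction came to 7 with array weights (1.41% of all genes). The interaction of Mrpl9 turned to −0.170 with array weights, −0.212 without the 3 libraries and −0.028 without HFD KO replicate 4 (−0.028 to 0.288 leaving out 1 library at a time), and its KO minus WT difference on HFD to −0.043 without the 3 libraries. Leaving out 1 library at a time gave, in mice labelled KO, 0 to 1 higher, 22 to 37 lower and a median of −0.290 to −0.229. Over these fits, 17.9% to 29% of all genes were higher and 11.1% to 18.8% lower. In mice labelled WT it gave 6 to 7 higher, 8 to 17 lower and a median of −0.082 to 0.005. There, 19.3% to 27.9% of all genes were higher and 12.9% to 18% lower. On chow it gave 0 to 1 higher (0.0868% to 0.505% of all genes) and a median of 0.125 to 0.174. On HFD it gave 0 in either direction and −0.121 to 0.006, and in the interaction 0 in either direction and −0.229 to −0.130. Replicate numbers are not stated to pair mice. Correlations of same-numbered deviations ran from −0.630 to 0.367, and with 4 libraries per group they do not settle whether the numbers pair mice. With the replicate block, 30 members were lower in mice labelled KO (14.9% of all genes). In mice labelled WT, 7 were higher (23.2%) and 15 lower (16.7%).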
